A study of Mus musculus with 3 samples.

Results

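The miR-200 family comprises 5 miRNAs that are cut from a pair of genomic clusters, and its levels are described here in tibialis anterior (TA) muscle of mice before and after cardiotoxin (CTX) injury. CTX is a snake venom toxin that destroys myofibers, after which leukocytes enter the muscle and new fibers form. The mice were wild type C57BL/6 animals 10 weeks of age, and small RNAs of 18 to 30 nucleotides were sequenced from TA muscle at day 0, day 1 and day 3 of CTX injury. At each time point RNA of 4 samples was pooled into 1 library, so that none of the 3 libraries has a replicate and variation from mouse to mouse is unknown. The labels name saline as the control treatment without saying whether the day 0 muscle received it. The rule took 5 of the 1138 mature miRNAs in the files, mmu-miR-200a-3p, mmu-miR-200b-3p, mmu-miR-429-3p, mmu-miR-200c-3p and mmu-miR-141-3p, all of which were listed in every library. They were picked on their names, in work that already knew how their read counts moved between these libraries, and the rule uses those read counts. All levels and fold changes below are therefore a description, with no test. Each difference compares 1 library with another and has no replicate check.

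The family is best known from epithelial cells. Its members repress the mRNAs of the transcription factors ZEB1 and ZEB2, which in turn repress the promoters of the miRNA genes, and in this loop high miR-200 keeps E-cadherin on and cells epithelial. Mesenchymal tissues such as muscle are generally low in the family. Each hairpin gives a 3p arm, the usual functional strand, and a 5p arm that is mostly degraded. Clustered hairpins are commonly cut from a shared primary transcript.

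The mature sequences are shown because the family divides in one way by seed and in another by genomic position. They are from RefSeq on GRCm38.p6, 5′ to 3′, with the seed (bases 2 to 8, which pair with target mRNAs) in capitals. The first 3 come from the cluster on chromosome 4 and the last 2 from the cluster on chromosome 6.
miR-200a-3p: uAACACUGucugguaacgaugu
miR-200b-3p: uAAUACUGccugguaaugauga
miR-429-3p: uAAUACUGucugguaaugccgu
miR-200c-3p: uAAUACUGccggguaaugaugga
miR-141-3p: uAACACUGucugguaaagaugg

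miR-200b-3p, miR-429-3p and miR-200c-3p share the seed AAUACUG, and miR-200a-3p and miR-141-3p share AACACUG. Among 1679 mature mouse miRNAs in the RefSeq table, 3 carried the first seed and 2 the second, which are the 5 members. Counted from 1 at the 5′ end, the seeds differ at position 4 only, and the token C4U gives the change from miR-200a-3p to miR-200b-3p. Outside the seed, miR-200b-3p and miR-200c-3p differed over 22 bases by U11G and A22G, and miR-200c-3p is 1 base longer. miR-200a-3p and miR-141-3p differed by C17A and U22G. These closest pairs each join a member of one cluster to a member of the other. How the counting assigned reads that match more than 1 member is not given in the sources used here, so reads of a pair could be shared between clusters.

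The cluster on chromosome 4 of GRCm38 holds Mir429, Mir200a and Mir200b on the minus strand, from 156053905 to 156055750, a span of 1846 bases with gaps of 908 and 695 bases between hairpins. In the GENCODE M21 annotation of GRCm38, all 3 hairpins lie in introns of the protein-coding gene Ttll10 on the same strand. They also lie within the noncoding RNA Gm13648, Mir429 in an exon and the other two in an intron. The cluster on chromosome 6 holds Mir141 and Mir200c on the minus strand, from 124717914 to 124718390, a span of 477 bases with a gap of 336. Both of these lie in an intron of the noncoding RNA Gm15884, and Mir141 also overlaps an exon of Gm29008. The nearest protein-coding gene is Phb2, 963 bases from Mir141.

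The promoter of Gm13648 is shown because the 3 hairpins on chromosome 4 lie inside its transcript and ZEB factors are known to bind E-boxes of the letters CACCTG. This RefSeq window, chr4:156059753-156060052 of GRCm38.p6 on the minus strand, runs from 250 bases before the start of Gm13648 to 50 after it. That start is 4052 bases from the Mir200b hairpin. CACCTG and its reverse complement CAGGTG were searched on both strands, and the capitals mark the 2 matches.
Gm13648 promoter: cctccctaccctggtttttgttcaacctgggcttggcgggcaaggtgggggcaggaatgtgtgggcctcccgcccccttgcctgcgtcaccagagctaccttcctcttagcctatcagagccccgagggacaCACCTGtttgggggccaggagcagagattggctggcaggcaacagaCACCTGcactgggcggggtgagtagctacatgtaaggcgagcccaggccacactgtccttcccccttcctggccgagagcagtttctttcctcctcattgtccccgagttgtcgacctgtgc

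The matches begin 118 and 72 bases before the start. Of 32851 promoter windows of this length, 20.2% hold at least 1 match and 2.88% hold 2 or more. A match is a run of letters, and no binding was measured in this study.

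Levels are in CPM, the reads of a miRNA per 1000000 of its library, from totals of 8507580 at day 0, 6421056 at day 1 and 9795076 at day 3. A single read was thus worth 0.118, 0.156 and 0.102 CPM. Intervals are exact 95% intervals (Poisson for levels, Clopper-Pearson for shares, conditional binomial for fold changes) and cover counting error only. With 1 pooled library per time point, variation between mice or between libraries is not in them. PCR reads are not independent molecules, so the intervals may be too narrow even for counting error.

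All 5 members were scarce in uninjured muscle and higher in both injured libraries. The family held 79 reads at day 0, 1377 at day 1 and 1174 at day 3, which are 9.29 CPM (7.35 to 11.6), 214.5 CPM (203.3 to 226.1) and 119.9 CPM (113.1 to 126.9). Its summed level was 23.1 times the day 0 level at day 1 (18.4 to 29.4) and 12.9 times at day 3 (10.3 to 16.4). The day 3 level was 0.559 times the day 1 level (0.517 to 0.605). Bulk RNA does not tell more cells of a type from more of a miRNA in each cell.

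**Figure D1:**
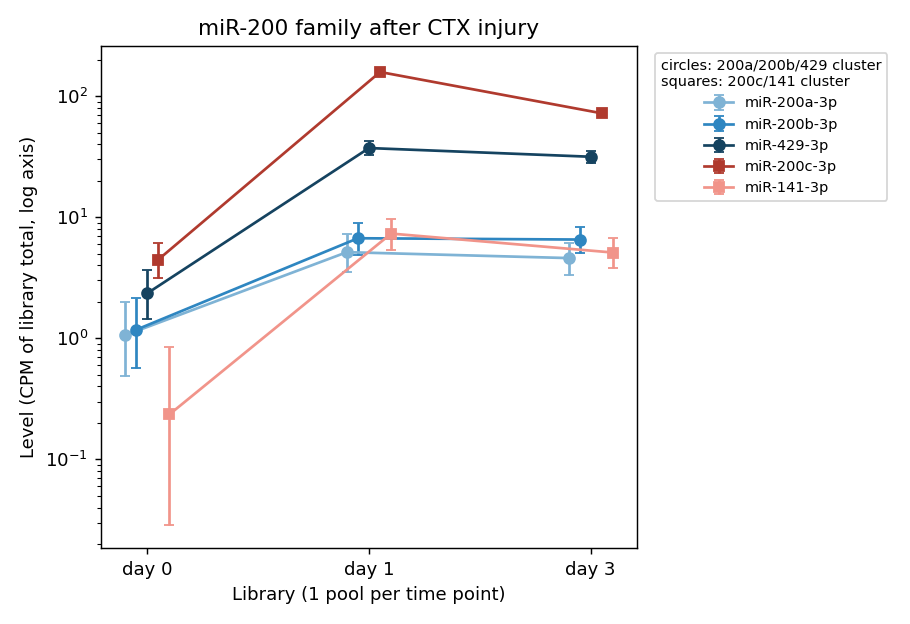
The level of each family member (CPM, log axis) in the day 0, day 1 and day 3 libraries, with exact 95% Poisson intervals that cover counting error only. Circles are the chromosome 4 cluster (miR-200a-3p, miR-200b-3p and miR-429-3p) and squares the chromosome 6 cluster (miR-200c-3p and miR-141-3p); miR-200c-3p is the highest in every library and miR-141-3p, with 2 reads, the lowest at day 0.

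miR-200c-3p was the leading member at each time point. It had 38 reads at day 0, 1015 at day 1 and 706 at day 3, at 4.47 CPM (3.16 to 6.13), 158.1 CPM (148.5 to 168.1) and 72.1 CPM (66.9 to 77.6). Among all miRNAs with reads it ranked 295 of 784 at day 0, 140 of 915 at day 1 and 191 of 987 at day 3. The peak was at day 1, and the intervals of the 3 levels did not overlap. Against day 0, its log2 fold change was 5.15 at day 1 (4.68 to 5.65) and 4.01 at day 3 (3.54 to 4.52).

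miR-141-3p, the neighbor of miR-200c-3p with the other seed, had 2 reads at day 0, 47 at day 1 and 50 at day 3. Its levels were 0.235 CPM (0.0285 to 0.849), 7.32 CPM (5.38 to 9.73) and 5.10 CPM (3.79 to 6.73). With 2 reads at day 0 its log2 fold changes of 4.96 at day 1 (3.03 to 8.05) and 4.44 at day 3 (2.51 to 7.53) were poorly bounded. The intervals at days 1 and 3 overlapped.

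miR-429-3p was the leading member of the chromosome 4 cluster. It had 20 reads at day 0, 239 at day 1 and 309 at day 3, at 2.35 CPM (1.44 to 3.63), 37.2 CPM (32.7 to 42.3) and 31.5 CPM (28.1 to 35.3). The log2 fold change was 3.98 at day 1 (3.33 to 4.72) and 3.75 at day 3 (3.09 to 4.48). Unlike miR-200c-3p, it stayed near its day 1 level at day 3, with a ratio of day 3 to day 1 of 0.848 (0.714 to 1.01).

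miR-200b-3p, which differs from miR-200c-3p by 2 substitutions but is cut from chromosome 4, had 10, 43 and 64 reads. Its levels were 1.18 CPM (0.564 to 2.16) at day 0, 6.70 CPM (4.85 to 9.02) at day 1 and 6.53 CPM (5.03 to 8.34) at day 3. The log2 fold change was 2.51 at day 1 (1.50 to 3.67) and 2.47 at day 3 (1.50 to 3.60). Despite the shared seed and near-identical sequence, the interval at day 1 ended below the 4.68 at which that of miR-200c-3p began.

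miR-200a-3p had 9, 33 and 45 reads, at 1.06 CPM (0.484 to 2.01), 5.14 CPM (3.54 to 7.22) and 4.59 CPM (3.35 to 6.15). Its log2 fold changes, 2.28 at day 1 (1.19 to 3.53) and 2.12 at day 3 (1.07 to 3.34), were the smallest of the family on both days. Before injury, when the order ran from miR-200c-3p to miR-429-3p, miR-200b-3p, miR-200a-3p and miR-141-3p, the intervals of all neighbors in it overlapped. The order of levels at day 1 was miR-200c-3p, miR-429-3p, miR-141-3p, miR-200b-3p and miR-200a-3p. The last 3 could not be ordered, since their intervals overlapped at day 1 and again at day 3, when miR-200b-3p stood above miR-141-3p.

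The question put to these data was whether the clusters moved alike. Before injury they did not differ beyond the counting intervals, with 39 reads from the chromosome 4 cluster and 40 from the chromosome 6 cluster, at 4.58 CPM (3.26 to 6.27) and 4.70 CPM (3.36 to 6.40). On day 1 the chromosome 4 cluster had 315 reads at 49.1 CPM (43.8 to 54.8), and the chromosome 6 cluster 1062 reads at 165.4 CPM (155.6 to 175.6). On day 3 they had 418 reads at 42.7 CPM (38.7 to 47.0) and 756 reads at 77.2 CPM (71.8 to 82.9). Both were higher after injury, the chromosome 6 cluster by more at each time, although at day 3 this did not hold between their leading members beyond counting error.

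The log2 fold change of the chromosome 4 cluster was 3.42 at day 1 (2.94 to 3.94) and 3.22 at day 3 (2.74 to 3.73). That of the chromosome 6 cluster was 5.14 (4.68 to 5.63) and 4.04 (3.58 to 4.53). From day 1 to day 3, the chromosome 6 cluster went to 0.467 times its level (0.425 to 0.513), whereas the chromosome 4 cluster was at 0.870 times (0.750 to 1.01). The day 1 peak of the family sum was thus a peak of the chromosome 6 cluster. Within that cluster it rests on miR-200c-3p, which held 1015 of the 1062 reads at day 1. miR-141-3p had 47 reads at day 1 and 50 at day 3, with a log2 change of -0.52 (-1.12 to 0.09). A peak of miR-141-3p was therefore not detectable.

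Shares within a library do not depend on how libraries are scaled. The chromosome 6 cluster held 50.6% of the family reads at day 0 (39.1 to 62.1), 77.1% at day 1 (74.8 to 79.3) and 64.4% at day 3 (61.6 to 67.1). Its ratio to the other cluster was 1.03, 3.37 and 1.81. Relative to day 0 this ratio was 3.29 times as high at day 1 (2.02 to 5.34) and 1.76 times at day 3 (1.09 to 2.86), and day 3 was at 0.536 times the ratio of day 1 (0.449 to 0.640). The interval for day 3 against day 0 began close to 1, and 79 reads at day 0 limit this value. Between the leading members alone, the ratio of miR-200c-3p to miR-429-3p was 2.24 times its day 0 value at day 1 (1.21 to 4.02) and 1.20 times at day 3 (0.652 to 2.16), so that at day 3 no difference between them was detectable.

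**Figure D2:**
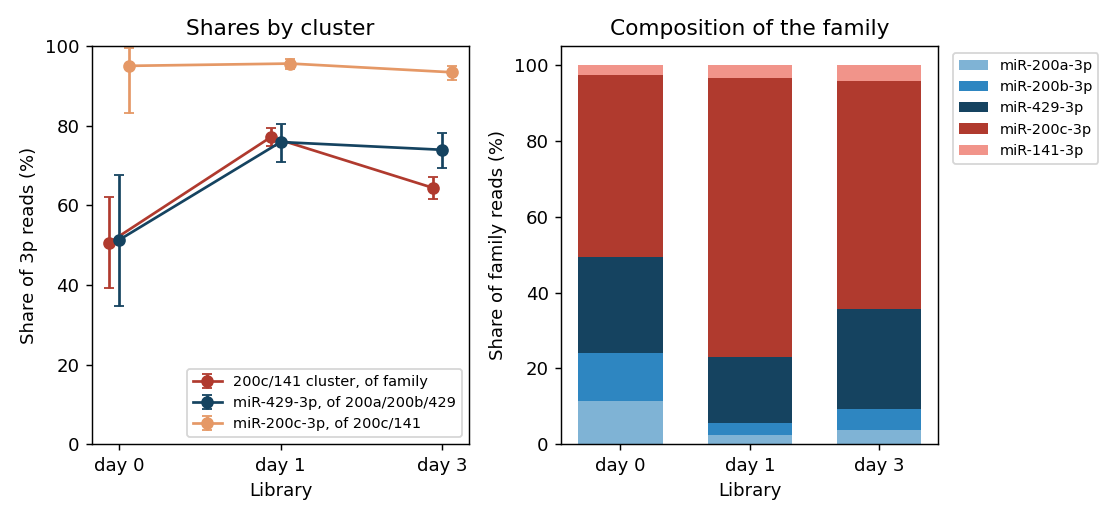
Left, shares of 3p reads (percent, exact 95% intervals of counting error) by library for the chromosome 6 cluster within the family and for the leading member of each cluster within its own cluster; right, stacked bars of each member's share of the family reads. The chromosome 6 cluster goes from 50.6% to 77.1% and 64.4% of the family, and miR-200c-3p is at 93.4% to 95.6% of its cluster.

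Within the chromosome 6 cluster no change in the balance of its members was detectable. miR-200c-3p made up 38 of the 40 reads of the cluster at day 0 (83.1% to 99.4%), 95.6% at day 1 (94.2 to 96.7) and 93.4% at day 3 (91.4 to 95.1), with overlapping intervals. Relative to day 0, the ratio of miR-200c-3p to miR-141-3p was 1.14 times at day 1 (0.129 to 4.63) and 0.743 times at day 3 (0.0845 to 3.03). With 2 reads of miR-141-3p at day 0, a change of several-fold could thus go unseen. Within the chromosome 4 cluster, the share of miR-429-3p was larger after injury. miR-429-3p made up 51.3% at day 0 (34.8 to 67.6), 75.9% at day 1 (70.8 to 80.5) and 73.9% at day 3 (69.4 to 78.1). The ratio of miR-429-3p to miR-200a-3p was 2.22 at day 0, 7.24 at day 1 and 6.87 at day 3. Relative to day 0 it was 3.26 times as high at day 1 (1.20 to 8.23) and 3.09 times at day 3 (1.16 to 7.61). Its ratio to miR-200b-3p was 2.78 times as high at day 1 (1.08 to 6.72) and 2.41 times at day 3 (0.959 to 5.70), so that the latter interval held 1. miR-200b-3p and miR-200a-3p were in ratios of 1.11 (0.406 to 3.09), 1.30 (0.809 to 2.12) and 1.42 (0.956 to 2.13). The chromosome 4 cluster was therefore led at days 1 and 3 by miR-429-3p, whose log2 fold change at day 1 lay between those of miR-200b-3p and miR-200c-3p.

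Neighboring hairpins elsewhere in the genome give a scale for these gaps. The log2 fold changes of Mir429 and Mir200a, by their leading arms, differed by 1.70 at day 1 and 1.63 at day 3. Mir200a and Mir200b differed by 0.23 and 0.36, and Mir141 and Mir200c by 0.18 and 0.43. Over 74 other pairs of adjacent hairpins on the same strand, at most 10000 bases apart, the median difference was 0.79 at day 1 (quartiles 0.37 and 1.25) and 1.04 at day 3 (0.39 and 1.77). The gap between Mir429 and Mir200a was above the upper quartile at day 1 and within the quartiles at day 3. It rests on 9 reads of miR-200a-3p at day 0. The change in the ratio of these 2 members had counting intervals of 1.20 to 8.23 at day 1 and 1.16 to 7.61 at day 3. Each is wide enough to take in both quartiles, so nothing is read from where the gap falls.

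Grouped by seed instead of position, the family was dominated by AAUACUG. This seed had 68 reads at day 0, 1297 at day 1 and 1079 at day 3, or 86.1% (76.5 to 92.8), 94.2% (92.8 to 95.4) and 91.9% (90.2 to 93.4) of the family. Its log2 fold change was 4.66 at day 1 (4.31 to 5.03) and 3.78 at day 3 (3.43 to 4.16). The AACACUG seed, with 11, 80 and 95 reads, had log2 fold changes of 3.27 (2.35 to 4.33) and 2.91 (2.00 to 3.96). Each seed has members in both clusters. At day 1 the log2 interval of miR-200c-3p did not overlap that of miR-200b-3p but did overlap that of miR-429-3p, which carry the same seed, and those of miR-141-3p and miR-200a-3p overlapped.

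The 5p arms, which the rule did not use, were nearly absent. Of the 5 looked for, 4 were listed (miR-429-5p was not among the listed miRNAs), and together they had 0 reads at day 0, 11 at day 1 and 15 at day 3. The limit for a count of 0 was set at 3 reads, which at day 0 is 0.353 CPM for each arm. On day 1 miR-141-5p had 4 reads, miR-200a-5p 3, miR-200c-5p 3 and miR-200b-5p 1, and at day 3 they had 4, 5, 2 and 4. The 3p arm made up 99.7% of the miR-200c hairpin at day 1 (99.1 to 99.9) and 92.2% of the miR-141 hairpin (81.1 to 97.8). In the 0.793% of day 1 reads of the hairpins and 1.26% of day 3 reads that were 5p, no fold change can be read.

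The rises have to be read against the whole table, in which most miRNAs tested were higher after injury. Among miRNAs with at least 10 reads in 1 or both libraries, 55.3% of 532 were at least 2-fold higher at day 1 than at day 0 and 58.5% of 569 at day 3. All 5 members were past 2-fold at each time, and 2 of them (miR-200a-3p and miR-141-3p) met the minimum only through the injured library. Nothing is read from this count, or from the medians and ranks that follow, because the rule used this contrast. The median log2 fold change was 3.98 for the members and 1.28 for all miRNAs at day 1, and 3.75 and 1.47 at day 3. By fold change, the 3 members with at least 10 reads at day 0 ranked 17 (miR-200c-3p), 47 (miR-429-3p) and 138 (miR-200b-3p) of 532 at day 1 and 63, 79 and 170 of 569 at day 3.

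**Figure D3:**
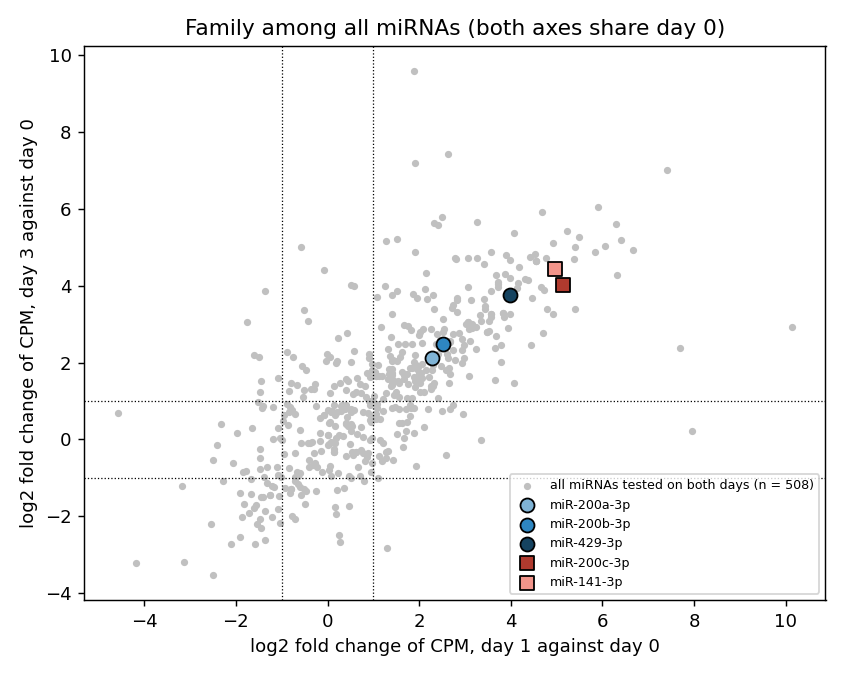
The log2 fold change of CPM at day 1 (x axis) and day 3 (y axis), each relative to day 0, for all miRNAs with at least 10 reads in 1 or both libraries of each comparison (gray points) and for the 5 members (circles, chromosome 4 cluster; squares, chromosome 6 cluster). Dotted lines mark a 2-fold change; both axes share the day 0 library, so their points are not independent, and the members lie from 2.28 to 5.15 on the x axis.

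The size of each rise depends on the scaling. edgeR's TMM factors shift every log2 fold change by the same -0.94 at day 1 and -0.93 at day 3, and DESeq2's median-of-ratios factors by -1.04 and -1.12. With the latter, miR-200a-3p was at 1.24 at day 1 and 1.00 at day 3, just under 2-fold, and 4 of the 5 members stayed past 2-fold at day 3, beside 35.1% of the 569 miRNAs tested. Under each scaling tried the 5 members were above their day 0 level after injury. Over all miRNAs at day 1, 35.2% were at least 2-fold higher and 24.2% lower under TMM, and 33.1% and 25.9% under median-of-ratios scaling, and at day 3 these shares were 39.4% and 22.1%, and 35.1% and 24.8%. Higher calls thus made up 82.1% of calls in either direction at day 1 and 85.4% at day 3 by CPM, 59.2% and 64.0% under TMM, and 56.1% and 58.7% under median-of-ratios scaling.

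From day 1 to day 3, 17.7% of 583 miRNAs were at least 2-fold lower and 25.0% at least 2-fold higher. Among the members only miR-200c-3p was, with a log2 fold change of -1.13 (-1.27 to -0.99). With the second deposited column, the expression values, in place of reads, it was at -0.81, so that this call ends, and the chromosome 4 cluster went from -0.20 to 0.11. This column holds nearly all of the members' reads but sums to 30.4%, 47.0% and 37.7% of the reads of the libraries, so that it mainly changes the total by which the members are divided. miR-141-3p was at -0.52 (-1.12 to 0.09), miR-429-3p at -0.24 (-0.49 to 0.01), miR-200a-3p at -0.16 (-0.84 to 0.53) and miR-200b-3p at -0.04 (-0.62 to 0.56). These 4 intervals held 0, so a change over these days was not detectable at this depth.

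Other miRNAs known from epithelia were highest on different days. The list held 10 miRNAs, of which 8 were at least 2-fold higher at day 1 and 4 of the 8 with enough reads at day 3, with 0 lower at each time, against 55.3% and 58.5% higher over all miRNAs. Of those higher at day 1, miR-205-5p, miR-96-5p, miR-375-3p and miR-215-5p had fewer than 10 reads at day 0. They met the minimum only through the injured library, as did miR-96-5p among those higher at day 3. Nothing is therefore read from these counts. Most day 1 calls end under TMM and under median-of-ratios scaling, each with 3 of 10 higher and 1 lower, where 35.2% and 33.1% of all miRNAs were higher. The 3 were miR-205-5p, miR-96-5p and miR-215-5p, all of which met the minimum only through the day 1 library. At day 3, 4 of 8 were higher and 1 lower under both, where 39.4% and 35.1% of all were higher. miR-205-5p, typical of stratified epithelium, had 6 reads at day 0, 35 at day 1 and 11 at day 3, at 0.705, 5.45 and 1.12 CPM. miR-203-3p, known from skin, was at 18.9, 27.1 and 32.6 CPM, below 2-fold at each time. miR-375-3p, known from islets and gut epithelium, had 9, 26 and 4 reads. Of these 3, miR-205-5p and miR-375-3p were highest at day 1, at levels of a few CPM.

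miR-192-5p and miR-194-5p, which are abundant in gut, liver and kidney, were the list's most abundant members at day 1. They were at 155.9 and 94.9 CPM at day 0, 574.0 and 216.3 CPM at day 1, and 173.6 and 64.7 CPM at day 3. miR-215-5p, which is related to miR-192-5p, had 0 reads at day 0, 20 at day 1 and 0 at day 3. Like the chromosome 6 cluster, these 3 were highest at day 1.

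The miR-183, miR-96 and miR-182 cluster, known from sensory organs and epithelia, was highest at day 3 instead. Summed, it was at 13.9 CPM at day 0 (11.5 to 16.6), 27.1 CPM at day 1 (23.2 to 31.4) and 491.1 CPM at day 3 (477.3 to 505.1). Its members did not move alike at day 1. The log2 fold change was -0.57 for miR-183-5p (-1.27 to 0.10), 2.41 for miR-96-5p (1.18 to 3.85) and 1.52 for miR-182-5p (1.04 to 2.01). miR-449a-5p, known from multiciliated cells, was likewise highest at day 3, at 3.17, 12.0 and 92.8 CPM.

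**Figure D4:**
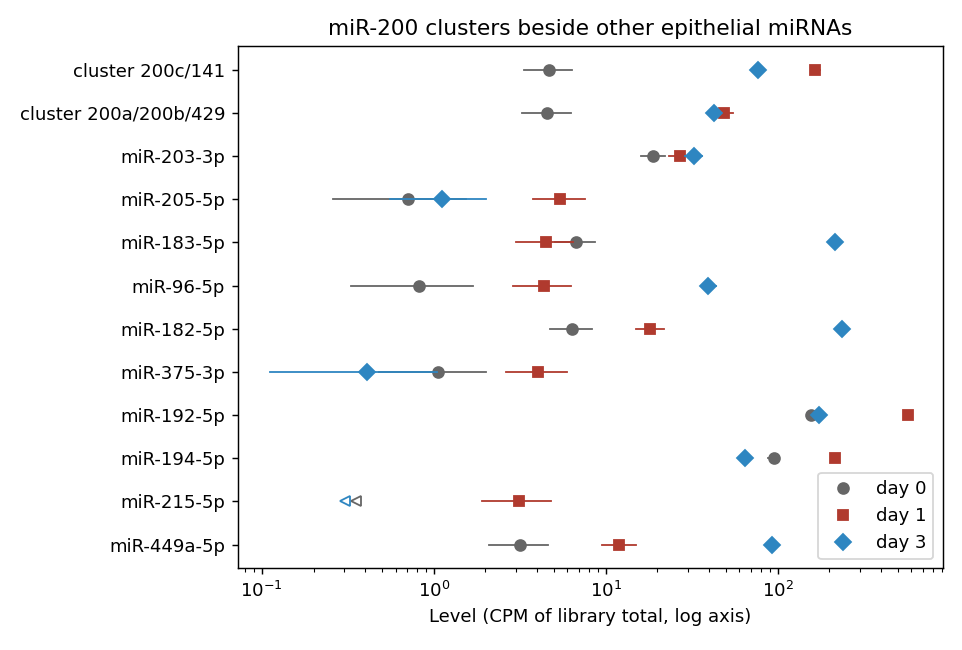
Levels (CPM, log axis) of both miR-200 clusters and of the 10 other epithelial miRNAs at day 0 (gray circles), day 1 (red squares) and day 3 (blue diamonds), with exact 95% Poisson intervals of counting error. Open triangles stand for 0 reads, drawn at the level of 3 reads; the chromosome 6 cluster is highest at day 1 at 165.4 CPM, and miR-183-5p, miR-96-5p, miR-182-5p and miR-449a-5p at day 3.

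miRNAs of other cells moved over the same days, and their counts stand beside 55.3% of all miRNAs at least 2-fold higher and 12.0% lower at day 1, and 58.5% and 10.0% at day 3. The 7 leukocyte miRNAs summed to 5493 CPM at day 0, 21499 CPM at day 1 and 10003 CPM at day 3, and 5 of 7 were at least 2-fold higher at each time. miR-150-5p, a lymphocyte miRNA, held 4733 CPM of the day 0 sum, and the other 6 summed to 760.4, 13192 and 6806 CPM. The 7 myofiber miRNAs, which check the tissue label, went from 27.4% of the reads to 9.17% and 27.8%. The return at day 3 was that of miR-206-3p, a miRNA of developing and regenerating muscle, without which the other 6 held 26.2%, 8.69% and 9.75%. In this list 5 of 6 tested were at least 2-fold lower at day 1, and 4 lower and 2 higher of 7 at day 3 (1 higher under TMM and under median-of-ratios scaling). Of the 2 higher, 1 had 4 reads at day 0 and met the minimum only through the day 3 library. The 2 erythroid miRNAs were at 7142, 25326 and 12560 CPM, with both higher at day 1 and 0 at day 3. The 4 vessel miRNAs were at 94336, 196683 and 84074 CPM, with 3 and 0 higher, and the 3 stromal miRNAs at 2020, 3692 and 6244 CPM, with 2 and 3 higher. Under TMM and under median-of-ratios scaling, where 35.2% and 33.1% of all miRNAs were higher at day 1 (24.2% and 25.9% lower) and 39.4% and 35.1% at day 3 (22.1% and 24.8% lower), 5 of 7 leukocyte miRNAs were again higher at each time and 1 (miR-150-5p) was lower at day 3. At day 1 the erythroid and vessel counts went to 0 and the stromal count to 1. At day 3 the stromal count was 1 and 3 (TMM) or 4 (median-of-ratios) of the vessel miRNAs were at least 2-fold lower. No miRNA of these lists was at 0 in any library. Their part in the rise of the family was not tested.

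The miRNAs with a time course nearest to each cluster were sought among 386 others with at least 10 reads in each of the 3 libraries, by the Euclidean distance between pairs of log2 fold changes. For the chromosome 4 cluster these were miR-652-5p (distance 0.09, from 10 to 76 and 108 reads), miR-15b-5p (0.17, from 1330 to 10153 and 12896 reads) and miR-221-3p (0.25, from 419 to 3449 and 5324 reads). For the chromosome 6 cluster they were miR-142a-5p (0.70, from 181 to 5698 and 5406 reads), miR-669b-5p (0.76, from 33 to 520 and 672 reads) and miR-467c-5p (0.84, from 41 to 614 and 847 reads). Among the 386, the chromosome 6 cluster had no neighbor as close as those of the other cluster. Its day 3 fold change was further below its day 1 fold change (by 1.10 on the log2 scale) than that of any of these 3. The distances leave out counting error. The day 1 log2 fold change of the chromosome 4 cluster alone had an interval of 2.94 to 3.94, so the order among near neighbors is not settled.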

How the data were processed

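Small RNAs of TA muscle were sequenced on the BGISEQ platform, with 1 pooled library at each of day 0, day 1 and day 3. The authors aligned reads to GRCm38.p6, and the submitters' processing notes name HISAT and Bowtie2, while the counter is not given in the sources used here. The deposited read counts are raw reads per mature miRNA. A second deposited column, an expression value handled as a score, holds whole numbers never above the read count. How it was made is not given in the sources used here, and for the members it was 98.7% to 100% of the reads, while it was far below the reads of the most abundant miRNAs.

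Counts were divided by the file total (CPM). With 1 library per group no replicate model has residual degrees of freedom, so no test was run, and called means a CPM ratio of at least 2 among miRNAs with at least 10 reads in 1 or both libraries, with 0 reads set to 3. edgeR and DESeq2 supplied scaling factors only. The calculation of fold changes and intervals was run on simulated Poisson counts drawn around the day 0 library. At day 1 and at day 3, 95.5% of the intervals of changed miRNAs held the true fold change. This checks the calculation only, because variation between libraries was not simulated. The changed miRNAs had at least 10 reads at day 0, more than miR-141-3p and miR-200a-3p had. The members and lists were chosen with earlier results of these data known. Named miRNAs are the members, their 5p arms, the epithelial list and the 3 nearest time courses per cluster. The other lists (leukocyte, myofiber, vessel, stroma, erythroid) are given by counts and sums, with miR-206-3p and miR-150-5p named after their values were seen. The pairs of adjacent hairpins, the promoter search, the lists and the day 3 to day 1 changes under other settings, and the myofiber and leukocyte sums without those miRNAs were added after the values were seen. Sequences are from RefSeq. The versions were DESeq2 1.42.0 and edgeR 4.0.16 under R 4.3.3, and scipy 1.17.1, pandas 2.3.3, numpy 2.4.6 and matplotlib 3.10.9 under Python 3.11.15.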

Additional observations from a re-analysis of the deposited data

How the results depend on the processing

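Each scaling shifts all miRNAs of a day alike, and both clusters stayed higher under each. For the chromosome 4 cluster the log2 fold change was 2.48 at day 1 and 2.29 at day 3 under TMM, 2.38 and 2.10 under median-of-ratios scaling, and 2.80 and 2.71 with totals that left out the 10 leading miRNAs. For the chromosome 6 cluster these values were 4.19 and 3.11, 4.10 and 2.92, and 4.52 and 3.53. With the second deposited column (expression values) in place of reads, the clusters were at 2.79 and 4.49 at day 1, and at day 3 both stayed within the counting intervals, as did all values with both arms added. Without miR-200c-3p, the chromosome 4 cluster held 95.1%, 87.0% and 89.3% of the family reads at days 0, 1 and 3. From day 1 to day 3 the same column put the clusters at log2 changes of 0.11 (chromosome 4, against -0.20) and -0.78 (chromosome 6, against -1.10), with miR-200a-3p at 0.16, miR-200b-3p at 0.28 and miR-429-3p at 0.068, each below 0 by read count, and totals without the 10 leading miRNAs put miR-200b-3p at 0.072. These settings change mainly the totals, since the expression values held 98.9% to 100% of the family reads of each library and 16.5%, 28.8% and 21.1% of the reads of the 10 leading miRNAs. For fold changes of single members against day 0, 34 of 50 alternative values stayed within the counting interval of the reported value and 16 did not, and all 50 were above 0.

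The share of tested miRNAs at least 2-fold higher at day 1 went from 55.3% to 35.2% under TMM and 33.1% under median-of-ratios scaling, and 33.8% were past a fold of 4. At day 3 it went from 58.5% to 35.1% under median-of-ratios scaling, and 37.6% were past a fold of 4. No paired analysis was possible because each time point has 1 library, and leaving out a replicate was not run for the same reason. The 79 family reads at day 0 limit the fold changes against day 0, and the 2 reads of miR-141-3p its own.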
